A study of Mus musculus with 12 samples.

Results

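The Ly6 antigens are small proteins of the blood cell surface, and 5 of their genes, which encode the Ly6C and Ly6G antigens of the sort and relatives of these, were followed here in bone marrow cells of young and aged mice. The genes were chosen by name (Ly6c1, Ly6c2, Ly6g, Ly6e and Ly6a) from a table of 23420 genes, and counts of 4 of the 5 were analysed. Ly6g was not analysed here, so its relation to Ly6c2 is not given. The cells were M-MDSCs, immature monocytic suppressor cells, gated on flow cytometry as CD11b+, Ly6G- and Ly6C high and taken from the bone marrow of C57BL/6JNIA mice, labelled as tibia. The aged group held 6 male mice of 24 months and the young group 6 male mice of 6 months, with no allele or treatment named for either group, and each mouse gave 1 library. Each library gave between 8737941 and 16300374 counted fragments in aged mice and between 4613239 and 9079237 in young mice, so that 3 counts, taken as the limit of detection, corresponded to 0.188 to 0.349 CPM in aged and 0.305 to 0.642 CPM in young mice. CPM are counts per 1000000 of the TMM-normalized library total.

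Ly6 proteins share a compact, disulfide-bonded fold with the urokinase receptor uPAR and most are held in the outer membrane by a glycosylphosphatidylinositol (GPI) anchor. Ly6C, encoded by the neighbouring genes Ly6c1 and Ly6c2, marks inflammatory monocytes and is the antigen of the Ly6C gate. Ly6G marks neutrophils. Ly6A, also called Sca-1, is used to isolate blood stem cells and is found on endothelial cells and activated lymphocytes, and Ly6E is a broadly expressed relative that, like Ly6A, can be induced by interferon. Because the cells had been gated on Ly6C protein, the levels below are those of cells already selected for the product of Ly6c1 and Ly6c2. In a bulk sample, fewer cells of a type and less RNA per cell cannot be told apart.

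The 4 genes lie within 156899 bases of chromosome 15 (mm10). Ly6e lies on the plus strand at chr15:74955051-74959905, and Ly6a (chr15:74994877-74998031), Ly6c1 (chr15:75044018-75048837) and Ly6c2 (chr15:75108161-75111949) lie on the minus strand. The 250 bases upstream of the start sites of Ly6c1 and Ly6c2 are shown because these genes encode the gate antigen and differ widely in level. Both are from RefSeq (GRCm38.p6), minus strand, written 5′ to 3′, at chr15:75048838-75049087 for Ly6c1 and chr15:75111938-75112187 for Ly6c2, with each match of the PU.1 box in capitals. Ly6a and Ly6e are named only.
Ly6c1: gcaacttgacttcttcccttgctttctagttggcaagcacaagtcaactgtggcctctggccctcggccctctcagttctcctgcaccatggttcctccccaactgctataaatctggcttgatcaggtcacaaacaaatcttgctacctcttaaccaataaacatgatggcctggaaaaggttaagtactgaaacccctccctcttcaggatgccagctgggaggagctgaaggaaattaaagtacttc
Ly6c2: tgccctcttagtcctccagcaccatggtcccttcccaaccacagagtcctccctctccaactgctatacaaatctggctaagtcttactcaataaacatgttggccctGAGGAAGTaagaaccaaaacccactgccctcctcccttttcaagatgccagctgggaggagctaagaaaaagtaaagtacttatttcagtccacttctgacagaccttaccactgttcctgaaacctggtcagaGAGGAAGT

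The motifs below were searched on both strands of the 300-base windows that hold these sequences and the first 50 bases of each transcript. They were the PU.1 box GAGGAAGT, bound by a transcription factor of myeloid cells, the interferon-stimulated response element (ISRE), the interferon-gamma activated site TTCNNNGAA and the C/EBP site TTGCNNAA. The PU.1 box was found in the Ly6c2 window 142 and 8 bases before the start site, and it is present in 3.2% of 32851 promoter windows of the same length. The printed Ly6c1 window did not hold it, but a second RefSeq window of that gene, at chr15:75048614-75048913, held it 127 bases before its start site. In a second RefSeq window of Ly6c2, at chr15:75111922-75112221, the same boxes lie 108 bases before and 26 bases after that window's start site, and the gene in the count table ends at 75111949, so that the position of the nearer box relative to the start depends on the start site used. The other motifs, present in 3.44%, 8.3% and 10.8% of all windows in the order given, had no match in the printed windows, which says only that these letters are not there. Over 247 aligned columns, 72.9% of the bases of the Ly6c1 and Ly6c2 windows were identical.

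The transcripts of Ly6c1 and Ly6c2 are harder to tell apart. Their coding sequences were identical at 387 of 396 positions (97.7%), against 82% for Ly6c1 with Ly6a and 50.5% to 53.9% for Ly6e with the other 3. Of the 100-base windows of their GENCODE transcripts, 10.1% of those of Ly6c1 and 14.9% of those of Ly6c2 also occurred in another gene, those of Ly6c2 all in Ly6c1. The share was 1.45% for Ly6a and 0 for Ly6e. It depended on the window length. At 50 bases it was 32.8% for Ly6c1, 31.2% for Ly6c2 and 19% for Ly6a, and at 150 bases 2.29%, 5.44% and 0. Fragments were kept only at a mapping quality of at least 60, and how many fragments of each gene this removed or placed on the neighbour was not tested.

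The 12 libraries carried high levels of transcripts known from neutrophils, a cell type that the Ly6G- gate is meant to leave out. Cxcr2, a chemokine receptor of neutrophils, was at 498 ± 81.1 CPM per kilobase of exon in aged and 419 ± 75.4 in young mice (SD, n = 6 each), against 8.69 ± 6.18 and 10.3 ± 3.98 for Ccr2 and 36.4 ± 9.51 and 34.6 ± 4.10 for Csf1r, receptors of monocytes. M-MDSC is used here as the name the labels give. The study's own genes for scoring M-MDSCs in single cells include Cxcr2, S100a8, S100a9, Retnlg and Stfa2l1, which are all in the neutrophil list used here, so that this list does not tell M-MDSCs as the study scored them from neutrophils. Markers summed in each mouse gave 150344 to 176863 CPM in aged and 98243.7 to 149099 CPM in young mice for 18 neutrophil genes, and 12235 to 17710 CPM and 14696 to 19960 CPM for 15 genes of classical monocytes. Lyz2 averaged 11203 CPM in aged and 12330 CPM in young mice, and Chi3l3 4355 and 4282 CPM. The monocyte sum thus follows mainly these 2 of the 15 genes. The sums of the neutrophil genes did not overlap between the ages. Of the 18, 8 were higher and 1 was lower in aged mice, where 22.4% of all genes tested were higher and 23% lower. Among the 8 was Ngp, a granule protein, at 39566 CPM in aged and 30906 CPM in young mice. Of the 15 monocyte genes, 3 were higher and 1 was lower, beside the same shares of all genes. The lower gene was Klf4, a transcription factor of monocytes (-1.13, adjusted p = 0.0428 by edgeR). No gene of the list was called lower without aged mouse 2, 4, 5 or 6 or without young mouse 5, 6 or 9. Of 10 other settings, 5 kept 1 lower gene, and upper quartile factors did not.

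Of 9742 genes tested, 4425 (45.4%) differed between the ages at an adjusted p under 0.05 (edgeR's quasi-likelihood test with Benjamini-Hochberg adjustment), 22.4% higher and 23% lower in aged mice. Against that background, all 4 Ly6 genes that were analysed passed the test and were higher in aged mice. After a correction for a smooth trend in gene length within each library, 1 of the 4, Ly6e, passed it. In that setting 3393 of all genes were called in place of 4425. In Ly6c2 and Ly6e, but not in Ly6a and Ly6c1, values of the ages did not overlap, as was the case, in the same direction, for 9.64% of all genes. The plot of the 4 genes by mouse shows the values.

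**Figure D1:**
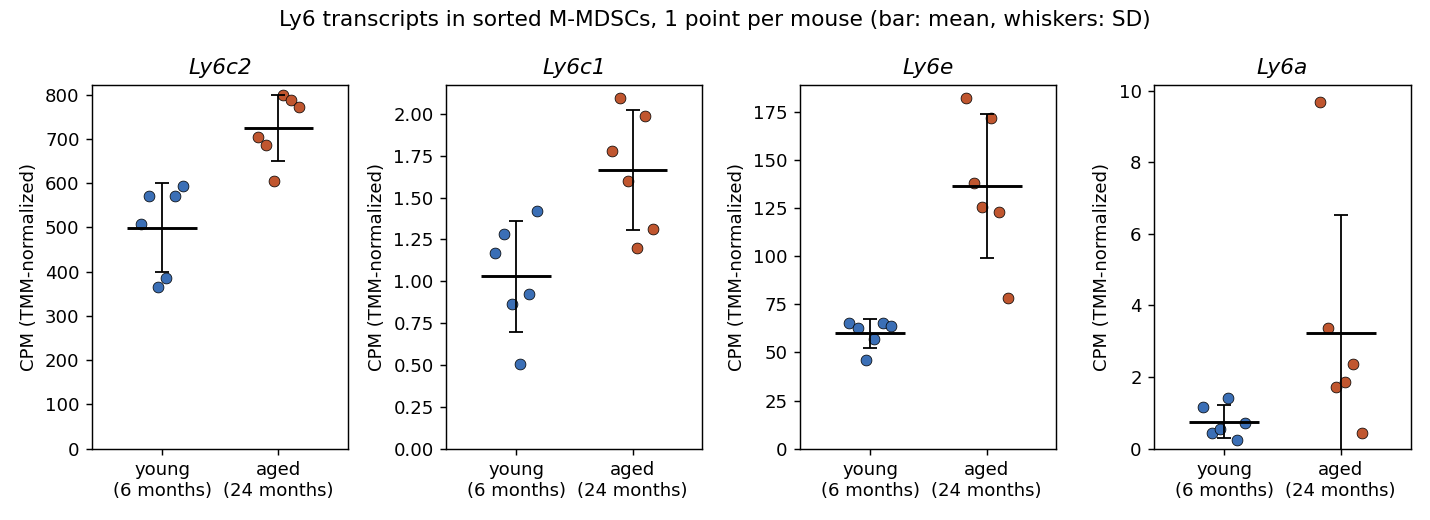
Level of Ly6c2, Ly6c1, Ly6e and Ly6a in CPM (vertical axes, starting at 0) in 6 young and 6 aged mice, with 1 point per mouse, a bar at the mean and whiskers of 1 SD, cut at 0 for Ly6a. Aged mice lie above all young mice for Ly6c2 and Ly6e, and the groups overlap for Ly6c1 and Ly6a.

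Ly6c2 was the most abundant of the 4, the 204th of the genes tested by mean CPM. Its level ranged from 605 to 799 CPM in aged mice, with a median of 738, and from 366 to 594 CPM in young mice, with a median of 540. Every aged mouse was above every young mouse, and young mice 5 and 6, at 366 and 386 CPM, were lower than the other young mice. The mean was 726 ± 74.7 CPM in aged and 499.7 ± 99.96 CPM in young mice (SD, n = 6 each), that is, a log2 fold change of 0.54 ± 0.12 (SE), or 1.45-fold, with an adjusted p of 0.00265 by edgeR. Each count was 2606 or more, so that counting error was small. Correcting each library for a smooth trend in gene length reduced the difference to 0.12 (adjusted p = 0.301 by edgeR), and leaving out young mice 5 and 6 reduced it to 0.35 (adjusted p = 0.00566).

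The summed neutrophil genes, like Ly6c2, were higher in every aged than in any young mouse. Young mice 5 and 6 were lowest in both, and aged mouse 5, with 799 CPM of Ly6c2, was highest in both. The part of these transcripts in the difference in Ly6c2 was not tested. Without young mice 5 and 6, 4 of the 18 neutrophil genes were higher in place of 8. Over all genes, 3157 were called in that setting in place of 4425. After the length correction 2 were higher and 2 were lower, and 3393 of all genes were called.

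Genes of monocytes low in Ly6C, which the gate is meant to leave out, were set beside Ly6c2 as well. Of 9 tested, 4 were lower and 1 was higher in aged mice, beside 23% lower and 22.4% higher over all genes, with a median log2 fold change of -0.43. Without young mice 5 and 6, 1 was lower, and 3157 of all genes were called in place of 4425. The largest fall was that of Ace, an angiotensin-converting enzyme (-1.28, adjusted p = 0.0128 by edgeR), and Nr4a1 (-1.07), a nuclear receptor that these monocytes need, Treml4 (-1.13) and Cebpb (-0.43) were also lower. Cd36, a scavenger receptor, was higher, at 10.3 ± 16.5 CPM in aged and 0.570 ± 0.364 CPM in young mice (adjusted p = 0.00531), but no gene of the list was called higher by limma-voom, and Spn was the most abundant, at 249 ± 24.2 CPM in aged and 232 ± 7.04 CPM in young mice (0.11, adjusted p = 0.205). The summed levels of the 12 genes overlapped, at 358 to 461 CPM in aged and 422 to 564 CPM in young mice, and young mouse 6 was highest. The part of such cells in the difference in Ly6c2 was not tested.

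CD11b, the other antigen that the gate asked for, is encoded by Itgam. It ranged from 2657 to 3476 CPM in aged mice, with a median of 2818, and from 3266 to 3538 CPM in young mice, with a median of 3335. Aged mouse 7 was at 3476 CPM and the other 5 aged mice were below every young mouse. The log2 fold change was -0.22 ± 0.08 (SE), with an adjusted p of 0.0285, and the call was lost without aged mouse 1, 2, 4, 5 or 6 or young mouse 6 (adjusted p up to 0.068). It was also lost with upper quartile factors (-0.19, adjusted p = 0.0526), with no filter on low counts (-0.23, adjusted p = 0.0622), without young mice 5 and 6 (-0.21, adjusted p = 0.0576) and with the length correction, which left -0.05 (adjusted p = 0.548). The count of Ly6c2 was 22.2% to 28.2% of that of Itgam in aged mice, compared with 10.5% to 17.5% in young mice. This ratio within a library, which does not depend on library scaling, differed by 0.78 on the log2 scale (exact two-sided permutation test, p = 0.00216, the smallest that 6 against 6 mice allow, adjusted p = 0.00866 over 4 ratios), and the ages did not overlap. The exons of Ly6c2 sum to 801 bases and those of Itgam to 4682 bases, and the ratio was not corrected for length. After the length correction neither gene was called, at 0.12 for Ly6c2 and -0.05 for Itgam.

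Ly6c1 was counted at a small share of Ly6c2. It had 13 to 21 counts in each aged mouse and 5 to 12 in each young mouse. These correspond to 1.20 to 2.09 CPM in aged mice, with a median of 1.69, whereas young mice lay between 0.509 and 1.42 CPM around a median of 1.05, so the groups overlap. The mean was 1.66 ± 0.359 CPM in aged and 1.03 ± 0.33 CPM in young mice, with a log2 fold change of 0.72 ± 0.27 (SE) and an adjusted p of 0.04 by edgeR. This call was lost without aged mouse 1, 2, 4 or 6 and without young mouse 5, 6 or 9 (adjusted p up to 0.108), and with DESeq2 (adjusted p = 0.0868).

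The count of Ly6c1 was 0.15% to 0.305% of that of Ly6c2 in aged mice, compared with 0.132% to 0.239% in young mice. The difference in this ratio was 0.12 on the log2 scale (exact permutation test, p = 0.552, adjusted p = 0.552), within the spread between mice, whose SD was 0.40 in aged and 0.35 in young mice. The direction of this difference turned with a pseudocount of 5 and in thinned counts. Their coding sequences are identical at 97.7% of positions, and the part of misplaced Ly6c2 fragments in the counts of Ly6c1 was not tested.

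Ly6e had the most certain difference of the 4, ranking 282nd of all genes tested by p. Its level was 78.2 to 182 CPM in aged mice, with a median of 132, and 46.0 to 65.5 CPM in young mice, with a median of 63.2. Aged mice 1 and 5 were the highest, at 182 and 172 CPM, and aged mouse 7, at 78.2 CPM, was closest to the young mice. The mean was 137 ± 37.6 CPM in aged and 60.1 ± 7.54 CPM in young mice, which is a log2 fold change of 1.19 ± 0.17 (SE), or 2.28-fold, with an adjusted p of 9.95e-05 by edgeR. A rise of at least this size that passed the test was found in 1.45% of all genes. The spread between aged mice was wider than that between young mice, with SDs of 37.6 and 7.54 CPM, and without any one mouse the log2 fold change lay between 1.09 and 1.31.

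Relative to Ly6c2, the count of Ly6e was 10.1% to 25.9% in aged mice, compared with 10.7% to 14.7% in young mice, and the ages overlapped only through aged mouse 7, at 10.1%. The difference was 0.58 on the log2 scale (exact permutation test, p = 0.026, adjusted p = 0.0519). Without aged mouse 7 it was 0.75 (adjusted p = 0.00433). The side of the threshold on which this ratio fell was thus set by 1 mouse.

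Ly6a was low, at 7 to 87 counts in aged and 2 to 14 in young mice. Its level was 0.438 to 9.67 CPM in aged mice, with a median of 2.11, and 0.231 to 1.42 CPM in young mice, with a median of 0.626. Aged mouse 1 was at 9.67 CPM, far above the next at 3.37, and aged mouse 7 was within the young range, so the groups overlapped. The mean was 3.23 ± 3.29 CPM in aged and 0.751 ± 0.458 CPM in young mice, which is a log2 fold change of 2.03 ± 0.64 (SE) and a 4.09-fold difference, with an adjusted p of 0.0176 by edgeR. Without aged mouse 1 the log2 fold change was 1.29 (adjusted p = 0.0471), limma-voom gave 1.44 (adjusted p = 0.11), and the length correction gave 1.64 (adjusted p = 0.056).

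Aged mouse 1 was also highest in the marker sums of several other cell types, though not of all. It had 27.5 CPM of 11 endothelial genes, against 5.26 to 12.9 in the other aged mice and 3.12 to 4.71 in young mice. It had 1737 CPM of 12 genes of resident macrophages, against 633 to 886 in the other aged and 424 to 590 in young mice, and 105.8 CPM of 7 plasma cell genes, against 13.7 to 64.2 and 12.6 to 42.4. The sums of T and NK cell genes (39.1 CPM), B cell genes (12.6 CPM) and erythroid genes (9.78 CPM) were also highest in this mouse. In the T and NK list, Cd4 reached 227 counts in an aged mouse, Cd3d 109 and Nkg7 41. By contrast, Cd3e, Cd3g, Cd8a and Lck had at most 4 in any aged mouse, so that sum was not carried by the list as a whole. For 10 genes of stem and progenitor cells, which Ly6A also marks, it had 70.6 CPM, within the 60.5 to 80.8 CPM of the other aged mice and the 63.0 to 82.2 CPM of young mice. Its sums of dendritic cell genes (19.8 CPM) and of neutrophil genes (160739 CPM) were likewise within the range of the other aged mice. All 11 macrophage genes tested were higher in aged mice, with a median log2 fold change of 2.47, beside 22.4% of all genes. Without young mice 5 and 6, 7 genes of the list were called, and 3157 of all genes in place of 4425. The part of these cells in the level of Ly6a was not tested. The plot of the Ly6 genes beside marker lists shows each mouse.

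**Figure D2:**
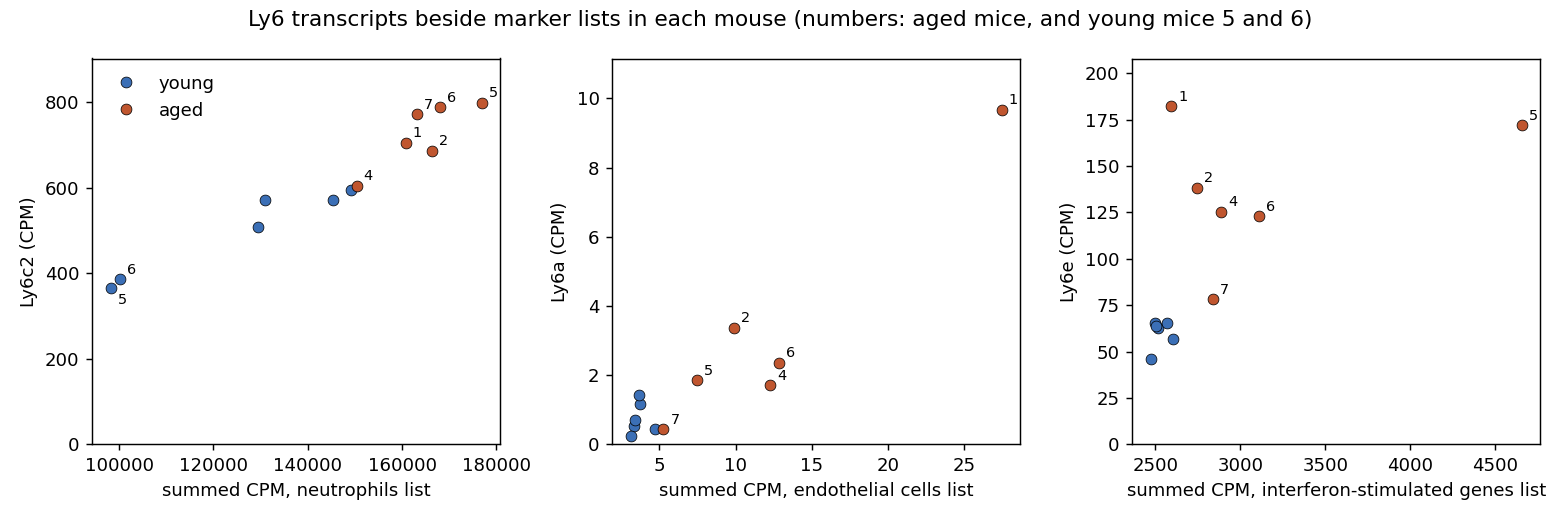
CPM of Ly6c2, Ly6a and Ly6e (vertical axes) against the summed CPM of neutrophil, endothelial and interferon-stimulated gene lists (horizontal axes), with 1 point per mouse and numbers at aged mice and at young mice 5 and 6. Young mice 5 and 6 are lowest in Ly6c2 and in the neutrophil sum, and aged mouse 1 is highest in Ly6a and in the endothelial sum at 27.5 CPM.

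Levels of different genes were compared per kilobase of exon. Ly6c2 stood at 906 ± 93.2 CPM per kilobase in aged and 624 ± 125 in young mice, against 617 in aged and 720 in young mice for Itgam. Ly6e stood at 59.3 ± 16.3 and 26.1 ± 3.28, Ly6a at 3.23 and 0.749, and Ly6c1 at 1.01 and 0.63 CPM per kilobase. The order Ly6c2, Ly6e, Ly6a and Ly6c1 held for the means at both ages. The ranges of Ly6a and Ly6c1 overlapped at each age, whereas those of Ly6c2, Ly6e and Ly6a were apart. Ly6a and Ly6c1 were not compared within each library, so whether they differ was not tested.

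**Figure D3:**
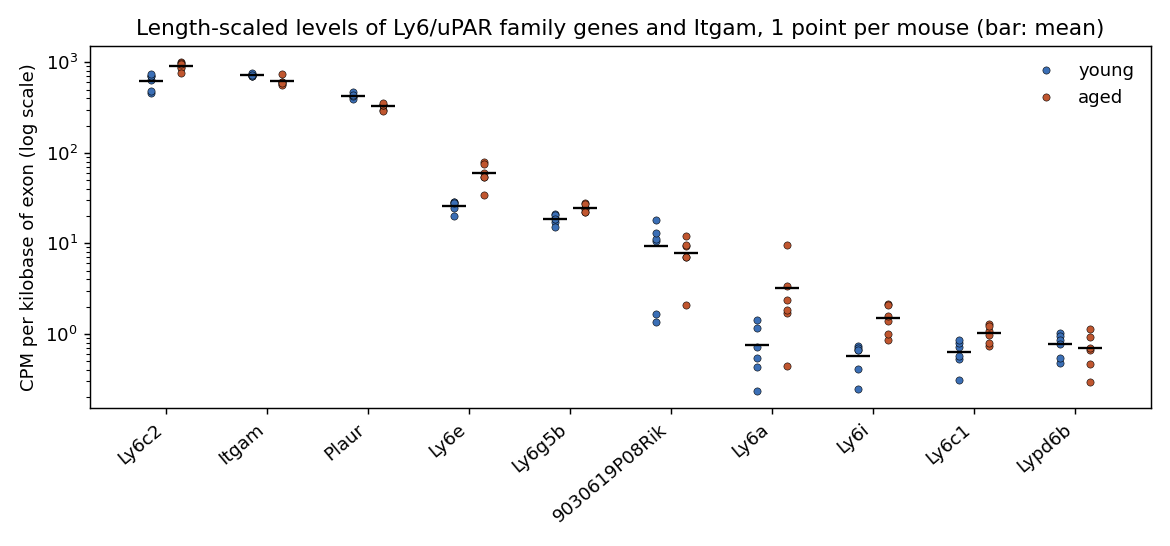
CPM per kilobase of exon (log axis) of the Ly6 and uPAR family genes tested, of Ly6i, and of Itgam, in young and aged mice with 1 point per mouse and a bar at the mean. Ly6c2, at 906 and 624, lies 2 to 3 orders of magnitude above Ly6a and Ly6c1.

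**Figure D4:**
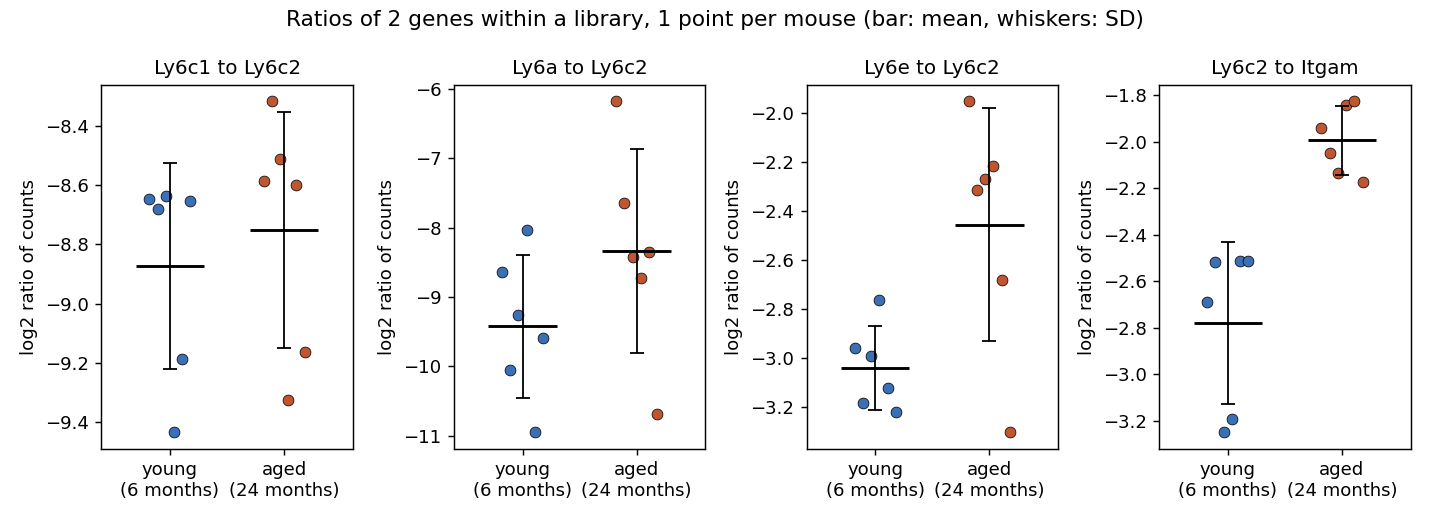
Log2 ratio of the counts of 2 genes in each library (vertical axes, not starting at 0) for 6 young and 6 aged mice, with 1 point per mouse, a bar at the mean and whiskers of 1 SD. The ratio of Ly6c2 to Itgam is higher in every aged mouse than in any young mouse, and the other ratios overlap.

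The ratio of Ly6a to Ly6c2 differed by 1.09 on the log2 scale (exact permutation test, p = 0.173, adjusted p = 0.231), with an SD of 1.47 in aged and 1.03 in young mice. Without aged mouse 7 it was 1.56 (adjusted p = 0.0404), and without aged mouse 1 it was 0.66 (adjusted p = 0.436).

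Within an age, the 4 genes were related to each other over 6 mice each, giving 12 correlations of log2 CPM. None passed the adjustment (exact permutation over pairings, smallest adjusted p = 0.256). The strongest was that of Ly6c2 with Ly6e in young mice, with Pearson's r = 0.86 (exact permutation p = 0.025) and Spearman's rho = 0.54 (p = 0.297). Without the 2 mice farthest from the median of Ly6c2 it was -0.54, so this relation rests on those mice. In aged mice Ly6e and Ly6a gave r = 0.84 (exact p = 0.0639) and rho = 0.71 (p = 0.136), which became r = -0.16 without 2 mice. Ly6c1 and Ly6c2 gave r = 0.77 (exact p = 0.0569) and rho = 0.89 (p = 0.0333) in young mice, and r = 0.60 without 2 mice. In aged mice the same pair gave r = -0.33 (exact p = 0.532) and rho = -0.43 (p = 0.419), and r = 0.69 without 2 mice.

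The genes whose log2 CPM, centred within each age, followed each member most closely over the 12 mice were searched among about 6588 genes of at least 10 CPM. For Ly6c2 they were Aldoa (r = 0.97), a glycolytic enzyme, Lypla1 (0.96), which removes palmitate from proteins, and Lamp2 (0.96), a lysosomal membrane protein. For Ly6e they were Cnbp (0.93), Wdr45b (0.90) and Ctsa (0.90), for Ly6a Igj (0.89), the joining chain of plasma cell antibodies, Tbxas1 (0.88) and Thbs1 (0.87), and for Ly6c1 Nsmce4a (0.95), Mrps18c (0.87) and Rps28 (0.86). Such values are the highest found in that search, over 12 libraries that share depth and composition, and are given without a p.

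Of 49 names in the wider Ly6 and uPAR family, 42 were matched, 20 had a count in some mouse and 8 passed the filter on low counts. Of these 8, 5 were higher in aged mice, the 4 members and Ly6g5b, 1 was lower, and 2 did not pass the test, beside 22.4% higher and 23% lower over all genes, with a median log2 fold change of 0.48 against 0.01 over all genes tested. That median includes the 4 members, and the genes outside them ranged from -0.39 to 0.42. After the length correction 1 family gene, Ly6e, was called higher, and 3393 of all genes were called in place of 4425. Ly6g5b, a family gene on chromosome 17, ranged from 23.3 to 29.3 CPM in aged and from 15.8 to 22.3 CPM in young mice without overlap, with a log2 fold change of 0.42 ± 0.10 (SE) and an adjusted p of 0.00312 by edgeR, which fell to 0.08 (adjusted p = 0.541) with the length correction. Plaur, which encodes the urokinase receptor itself, was the only one lower. It ranged from 407 to 499.9 CPM in aged and from 553 to 659 CPM in young mice, also without overlap, with a log2 fold change of -0.39 ± 0.07 (SE) and an adjusted p of 6.04e-04, and the length correction gave -0.62. Lypd6b was at -0.10 (adjusted p = 0.813) and 9030619P08Rik, a neighbour on chromosome 15, at -0.16 (adjusted p = 0.809), and the sign of both turned in some alternatives. The 19 family rows on chromosome 15 spanned 74714839 to 75598213, and 5 of them were tested.

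Ly6i, which lies between Ly6e and Ly6a, did not pass the filter. It had 8 to 20 counts in aged and 2 to 6 in young mice, or 0.756 to 1.86 CPM against 0.217 to 0.642 CPM without overlap, and a fit without the filter (15827 genes) gave a log2 fold change of 1.41 ± 0.39 (SE) with an adjusted p of 0.0104. Ly6d had 2 to 21 counts in aged mice, with aged mouse 1 highest, and 1 to 5 in young mice (0.92, adjusted p = 0.291). A total of 22 family rows had no count in any mouse.

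Genes that make and trim the GPI anchor stood beside the members as the machinery that anchors most of them. Of 26 tested, 5 were higher and 3 lower in aged mice, beside 45.4% of all genes called in either direction, with a median log2 fold change of 0.11. Pign, which adds an ethanolamine phosphate to the anchor, was 43.6 ± 5.23 CPM in aged and 56.7 ± 4.50 CPM in young mice (-0.38, adjusted p = 0.00308 by edgeR), and Mppe1, which trims the anchor, was 116 ± 8.79 and 136 ± 10.2 CPM (-0.23, adjusted p = 0.0133). The third lower gene was Pigv (-0.37). The 5 called higher were Dpm3 (0.63), Pigx (0.57), Pigyl (0.52), Pigs (0.51) and Pigt (0.38). Pgap3, a lipid remodelling factor, had the largest rise in the list but did not pass the test (0.72, adjusted p = 0.129).

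Ly6e and Ly6a are known interferon targets, and interferon-stimulated genes were set beside them. Of 41 tested, 22 were higher and 3 lower, with a median of 0.56, beside 22.4% higher and 23% lower over all genes. Without young mice 5 and 6, 11 were higher and 1 lower, and 3157 of all genes were called in place of 4425. The count of lower genes was 6 without aged mouse 5, 5 without TMM factors and 1 with the length correction. Slfn1 was the most abundant, at 540 ± 131 CPM in aged and 335 ± 19.4 CPM in young mice (0.69, adjusted p = 6.62e-04 by edgeR). I830012O16Rik had the largest rise (1.59, adjusted p = 0.0199) and Mx1, an antiviral GTPase, the largest fall (-1.84, adjusted p = 0.0155). The summed level was 2592 to 4654 CPM in aged and 2473 to 2603 CPM in young mice. Aged mouse 5, second in Ly6e, was highest in this sum, whereas aged mouse 1, highest in Ly6e, was the lowest of the aged mice, at 2592 CPM, so the order of Ly6e among aged mice was not that of the list.

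The plot of settings shows how each fold change moved with the analysis.

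**Figure D5:**
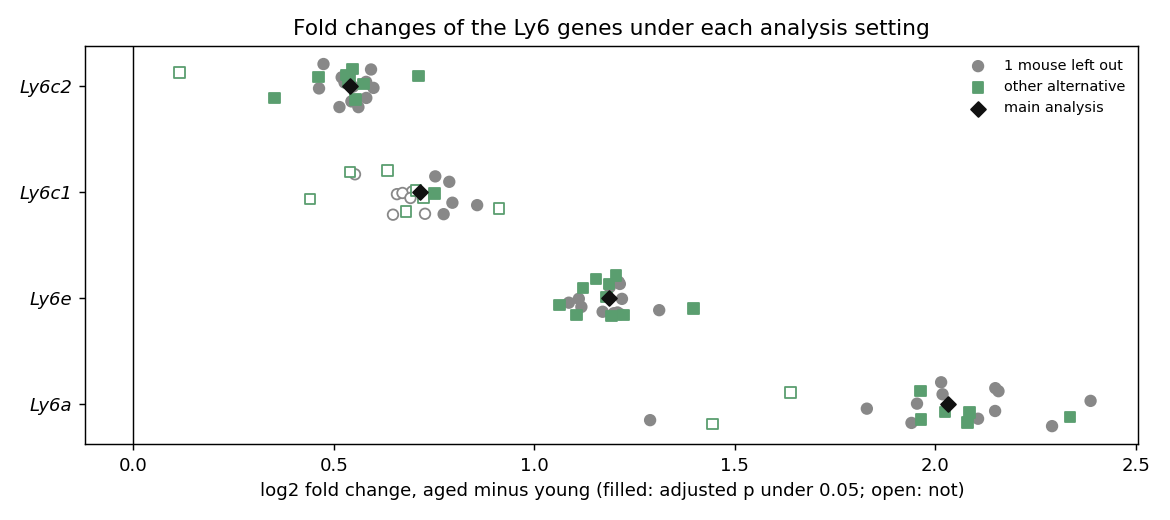
Log2 fold change of the 4 Ly6 genes (aged minus young, horizontal axis) in the main analysis, with 1 mouse left out, and under other settings, with filled symbols for an adjusted p under 0.05. Ly6e is filled throughout, Ly6c2 is open only at 0.12 with the length correction, and Ly6c1 is open in most settings.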

How the data were processed

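RNA of sorted M-MDSCs from 12 mice was sequenced in pairs on a NovaSeq instrument from stranded libraries. The authors deposited raw counts of fragments per gene, made with featureCounts 2.0.0 on the exons of a UCSC annotation of mm10, counting by strand and requiring both ends on 1 chromosome and a mapping quality of at least 60. The submitters' processing notes also name bcl2fastq. The aligner is not given in the sources used here. The column of gene length deposited by the authors gave lengths over exons. The members and lists were chosen with earlier results of these data known.

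Counts were fitted with edgeR 4.0.16 (R 4.3.3), with filterByExpr, TMM factors (0.919 to 1.10) and the quasi-likelihood test, adjusted over 9742 genes. Standard errors were derived from the F statistic of that test. The edgeR and limma-voom fits were tested on simulated data. Ratios used a pseudocount of 0.5 and exact permutation over mice. Genes named are the members, tested family genes, Itgam and the 3 genes most like each member. Also named are the strongest rise and fall and the most abundant gene of a list. Ccr2, Csf1r, Cxcr2, Nr4a1, Treml4, Cebpb, Ly6i, Ly6d and Chi3l3 were added after their values were seen. The same holds for Cd4, Cd3e, Cd3g, Cd8a, Lck, Dpm3, Pigx, Pigyl, Pigs, Pigt and Pigv. Alternatives were DESeq2 1.42.0, limma-voom (limma 3.58.1), other scalings, other filters, a length correction, thinned counts, leaving out each mouse and a replicate block. Sequence identity used Biopython 1.88 and GENCODE M21. Pairs of libraries of 1 age differed by more than sampling noise (chi-square per gene at least 1.68). The detection limit of 3 counts covers counting error only. The file numbers of young and aged libraries run apart, so any batch along them cannot be told apart from age.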

Additional observations from a re-analysis of the deposited data

Results flagged for a closer look

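Of 26 groups of 6 mice checked for a single mouse far from the rest, 2 were marked, and chance marks about 1 in 20 such groups. Ly6a in aged mice was marked for aged mouse 1, at 9.67 CPM against 3.37 CPM in the nearest aged mouse. Itgam in aged mice was marked for aged mouse 7, at 3476 CPM against 2865 CPM in the nearest. The cause of either value was not tested.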

How the results depend on the processing

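The direction of Ly6c2, Ly6e, Ly6a and Ly6c1 held in every setting that gave a value. Ly6e passed the test in all of them (1.06 to 1.397). Ly6c2 lost its call with the length correction only (0.12). Ly6a lost its call with limma-voom (1.44) and with the length correction (1.64). Ly6c1 lost its call with DESeq2 (0.72), limma-voom (0.68), library totals without TMM factors (0.63), no filter on low counts (0.71), the length correction (0.54) and, in a setting added after seeing the data, without young mice 5 and 6 (0.44). A minimum of 10 counts in every mouse and the thinned counts gave no fold change for Ly6c1 or Ly6a.

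Leaving out each mouse gave 0.55 to 0.86 for Ly6c1, 0.46 to 0.60 for Ly6c2, 1.09 to 1.31 for Ly6e and 1.29 to 2.39 for Ly6a. For the ratios it gave 0.66 to 1.56 for Ly6a to Ly6c2, 0.48 to 0.75 for Ly6e to Ly6c2, 0.01 to 0.24 for Ly6c1 to Ly6c2 and 0.69 to 0.84 for Ly6c2 to Itgam. The ratio of Ly6c1 to Ly6c2 turned to -0.22 with a pseudocount of 5 and to -0.13 in thinned counts. Lypd6b ranged from -0.29 to 0.049 and 9030619P08Rik from -0.41 to 0.11 when a mouse was left out, and limma-voom gave 0.37 for 9030619P08Rik. Correlations whose sign turned without a mouse were Ly6c1 with Ly6e (-0.47 to 0.68) and Ly6c2 with Ly6e (-0.37 to 0.32) in aged mice, and Ly6c1 with Ly6a (-0.57 to 0.43) and Ly6e with Ly6a (-0.57 to 0.23) in young mice, the last at 0.0019 without TMM factors. The cause was not tested.

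The numbers 1, 2, 5 and 6 occur at both ages but name different mice, and the deviations of same-numbered mice were correlated at -0.25 to -0.07. With the number as a replicate block 3446 genes were called in place of 4425. The block rests on the mice numbered 1, 2, 5 and 6, so the block and the number of mice changed together. Under the block Ly6c1 was at 0.91 (adjusted p = 0.104), Itgam at -0.29 (adjusted p = 0.0825), Lypd6b at 0.059 and the ratio of Ly6c2 to Itgam at 0.998 (adjusted p = 0.25, where the smallest raw p is 0.125). Counts below about 20 limit Ly6c1, Ly6a and Ly6i.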
